A study of Mus musculus with 6 samples.

Results

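Steroid hormone receptors were described in RNA-seq libraries of mouse kidney proximal tubule cells in which Igf1r, the receptor for insulin-like growth factor 1, was targeted for deletion. The set was fixed by gene name as 8 genes, all found among the 52405 genes of the deposited table: the oestrogen receptors Esr1, Esr2 and Gper1, the progesterone receptors Pgr, Paqr7 and Paqr8, and the corticosteroid receptors Nr3c1 and Nr3c2. Esr1 entered the set because it was higher in the knockout libraries of this same comparison, so its values are a description and carry no test. The remaining 7 entered as relatives of Esr1 by class.

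The study profiled uninjured adult female C57BL/6 mice, all ovariectomized at postnatal day 21. KO denotes mice with a proximal tubule-specific loss of Igf1r (3 libraries), and Ctr denotes their control mice (3 libraries). Cells from dissociated kidney cortex were held on a magnetic column by an antibody to prominin-1, a surface protein of proximal tubule cells, and their total RNA was sequenced. The labels name neither the Cre line that deleted Igf1r nor whether Ctr mice carried Cre, and they give no exact age, hormone level or hormone replacement. The libraries are labelled biological replicates, with no word on whether animals were pooled, so p-values measure only the spread between libraries.

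Nuclear steroid receptors sit in the cell bound to chaperones, take up a hormone that has crossed the membrane, bind DNA as dimers and recruit coactivators or corepressors. Membrane receptors answer the same hormones within minutes through G proteins or, for the progestin and adipoQ receptor family, through signalling at the cell surface. In the kidney the mineralocorticoid receptor is best known for sodium uptake in the distal nephron, the glucocorticoid receptor acts along most of the tubule, and sex hormones underlie much of the sex difference of the mouse proximal tubule. Ovariectomy removes the main source of oestradiol and progesterone.

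Values are FPKM, fragment counts scaled by transcript length and by the total of the library. The steps of low values put the KO libraries at about 19800000 to 25700000 reads and the Ctr libraries at about 22100000 to 23200000. Igf1r was listed at 4.78, 7.67 and 5.08 FPKM in the 3 KO libraries and at 18.7, 15.3 and 22.7 in the 3 Ctr libraries, so the groups did not overlap and the KO mean was 69.1% lower. The two-sided exact permutation p was 0.1, and 3 against 3 libraries cannot go lower. Igf1r did not pass limma's test over all genes (adjusted p = 0.267). Proximal tubule markers were abundant, and their sums overlapped between the groups. The 16 listed genes summed to 5274 to 6043 FPKM in KO libraries and 5197 to 6562 in Ctr libraries. Only Slco1a1 and Slc7a13 were under 1 FPKM in all 6. Of the 14 markers tested, 12 had a lower and 2 a higher estimate in KO, and 0 passed limma's test, beside 0.0235% of all genes tested. An unadjusted limma p under 0.05 was found for 1 of the 14, with a lower estimate, beside 3.51% of all genes tested. The median log2 change of the 14 was -0.10, beside -0.02 for all genes tested, of which 56.4% had a lower estimate. Other segments were present as well, with 8 thick ascending limb genes summing to 2641 to 4568 FPKM in KO and 2333 to 3225 in Ctr. In such mixed RNA, fewer cells of a type cannot be told apart from less RNA per cell. Both libraries numbered 1 stood apart by glomerular and blood transcripts. The 6 podocyte genes summed to 237 FPKM in KO replicate 1 and 318 in Ctr replicate 1, against 8.49 to 14.6 in the other libraries. The 8 endothelial genes summed to 160 in KO replicate 1 and 199 in Ctr replicate 1, against 16.3 to 24.7 in the others, and the 4 red blood cell genes to 132 and 280, against 0.99 to 5.40. Markers of the remaining lists summed to 2122 to 3064 FPKM in KO and 2399 to 2709 in Ctr for the distal convoluted and connecting tubule, 231 to 324 in KO and 188 to 355 in Ctr for intercalated cells, and 256 to 292 in KO and 263 to 296 in Ctr for thin limbs. Parietal and injured tubule markers summed to 9.4 to 12.6 in KO and 8.39 to 12.2 in Ctr, stromal markers to 32.4 to 81.1 in KO and 33.6 to 61.8 in Ctr, and macrophage and lymphocyte markers to 15.2 to 33.3 in KO and 17.0 to 28.6 in Ctr. Of 8 adipocyte, adrenal, ovary and uterus markers, Adipoq, Cyp11b1, Cyp11b2 and Foxl2 were listed at 0 throughout, and the sum was 0.72 to 0.97 in KO and 0.64 to 1.25 in Ctr. Because each group holds one library with high glomerular and blood transcripts, results on Esr1 and Paqr7 are given with and without both.

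Esr1 encodes oestrogen receptor alpha, a nuclear receptor that activates genes through oestrogen response elements. The gene (ENSMUSG00000019768) lies on GRCm38 chromosome 10, plus strand, 4611593 to 5005614, and no other annotated gene overlaps it. The KO libraries, in the order of their numbers, had 9.14, 18.1 and 18.1 FPKM, and the Ctr libraries 0.72, 0.98 and 0.74 FPKM. All later values per library follow this order. Every KO library stood above every Ctr library, and KO replicate 1 was well below the other KO libraries, with a ratio of highest to lowest of 1.98.

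At the length of the longest annotated transcript, 6339 bases, these values correspond to roughly 1470, 2488 and 2245 reads in KO and 100, 140 and 107 reads in Ctr. Neither group therefore rests on a handful of reads, although the Ctr values are low. The means were 15.1 ± 5.18 FPKM in KO and 0.813 ± 0.145 FPKM in Ctr (SD, n = 3 each), an 18.6-fold difference. On the log2(FPKM + 1) scale the change was 3.10 (SE 0.25), the highest of the 12770 genes tested, those whose FPKM averaged 1 or more over the 6 libraries. Esr1 reached that mean only through its KO libraries. Its rank repeats its choice for a rise in this contrast and lends that rise no weight. With a pseudocount of 0.1, which compresses low values less, it was 4.0 (SE 0.29). At that setting Esr1 was not the highest, since Gm2446 had a log2 change of 5.94. The rank thus depends on the pseudocount.

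The level of Esr1 in KO was that of a moderately expressed gene. By group mean, 80.7% of the genes above 0 in KO lay below Esr1, and 46.5% of those above 0 in Ctr lay below it. Its coefficient of variation was 34.2% in KO and 17.8% in Ctr. Without both libraries numbered 1, the KO mean was 18.1 FPKM and the Ctr mean 0.86 FPKM, a 21.1-fold difference. Taken by replicate number, the log2 difference was 2.56, 3.27 and 3.46 for numbers 1, 2 and 3. The lowest KO value and the smallest difference thus fell in the library with the high glomerular and blood transcripts, whose part in it was not tested.

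The table gives 1 value per gene and no position along it. Inducible Cre recombinases such as CreERT2 are fused to a mutated ligand-binding domain of oestrogen receptor alpha, and reads from such a fusion can be assigned to Esr1. The labels do not say whether such a construct was used here, and whether the KO values stem from the chromosomal gene was not tested. Among 7 genes whose promoters drive Cre in mouse lines of the proximal tubule, 1 had groups that did not overlap, beside 8.59% of all genes tested. This was Ndrg1, a gene of hypoxia and differentiation responses, at 396, 370 and 462 FPKM in KO and 666, 525 and 640 FPKM in Ctr. The change of -0.57 on the log2 scale (SE 0.12) did not pass (limma adjusted p = 1.0). The others overlapped: the sodium-phosphate cotransporter gene Slc34a1 had a log2 change of -0.09 (SE 0.14), the gluconeogenic enzyme gene Pck1 -0.26 (SE 0.28), the glutamyltransferase gene Ggt1 -0.14 (SE 0.08), the glucose transporter gene Slc5a2 -0.07 (SE 0.27), the kidney androgen-regulated protein gene Kap -0.68 (SE 0.34) and the transcription factor gene Pax8 -0.002 (SE 0.11). All 7 estimates lay below 0, as did 56.4% of all genes tested, with a median of -0.14 beside -0.02 for all genes tested.

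**Figure D1:**
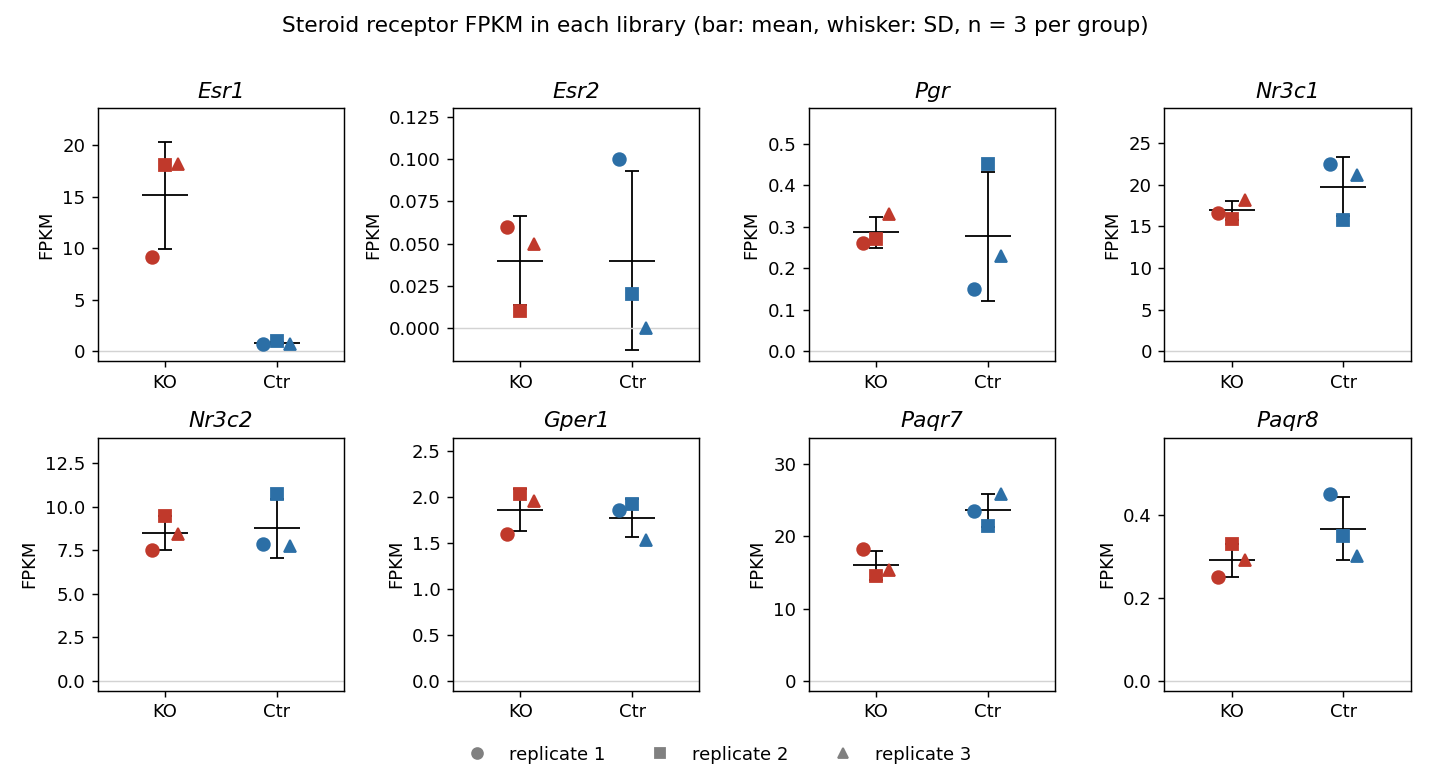
FPKM of the 8 receptor genes in each library, KO left and Ctr right, with the replicate number as symbol, the group mean as a bar and the SD as a whisker (n = 3 per group). The vertical axes differ between panels. Esr1 lies at 9.14 to 18.1 FPKM in KO and 0.72 to 0.98 in Ctr, Paqr7 at 14.5 to 18.2 in KO and 21.4 to 25.8 in Ctr, and the groups overlap for the other 6 genes.

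The promoter region of Esr1 is shown because Esr1 carries the largest difference of the set. RefSeq gives 2 starts for the gene, and the window around the upstream one runs from 250 bases before to 50 bases after it (GRCm38.p6 chr10:4611739-4612038, plus strand). Capitals mark the single match among 4 motifs searched on both strands, a half-site of the oestrogen response element, GGTCA.
Esr1 promoter: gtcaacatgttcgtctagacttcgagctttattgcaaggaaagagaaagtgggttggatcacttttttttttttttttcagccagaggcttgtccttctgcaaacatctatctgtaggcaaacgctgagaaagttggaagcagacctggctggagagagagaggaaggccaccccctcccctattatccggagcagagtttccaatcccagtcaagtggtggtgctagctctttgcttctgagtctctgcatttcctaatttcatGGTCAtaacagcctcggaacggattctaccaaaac
The half-site starts 15 bases after the transcription start. It was present in 40.5% of the 32851 promoter windows of the same length, so its presence is common. The full palindrome, GGTCA and TGACC with 3 bases between them, found in 0.07% of windows, the steroid receptor half-site TGTTCT, found in 19.0%, and the FoxO motif GTAAACA, found in 3.65%, were not in this window. The window at the downstream start (chr10:4709908-4710207) held none of the 4 motifs. FoxO factors are restrained by insulin-like growth factor signalling in general, which is why their motif was included.

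The genes beside Esr1 on the chromosome had overlapping groups throughout, while groups did not overlap for 8.59% of all genes tested. Of the 4 protein-coding genes on either side, 5 reached the expression filter, and their limma adjusted p was 1.0 each. Upstream, the zinc finger gene Zbtb2 had a log2 change of -0.14 (SE 0.15), the mitochondrial translation gene Rmnd1 0.02 (SE 0.11) and the protein carboxyl methyltransferase gene Armt1 -0.16 (SE 0.14). Downstream, the nuclear envelope spectrin gene Syne1 was at -0.003 (SE 0.31) and the endothelial gene Myct1 at -0.04 (SE 0.45). Ccdc170, the nearest upstream gene, was listed at 0.36, 0.81 and 0.16 FPKM in KO and 0.10, 0.24 and 0.48 FPKM in Ctr. Gm10097 was listed at 0 in all 6 libraries, and Vip, which encodes a neuropeptide, was at 0 except for 0.02 FPKM in Ctr replicate 1.

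**Figure D2:**
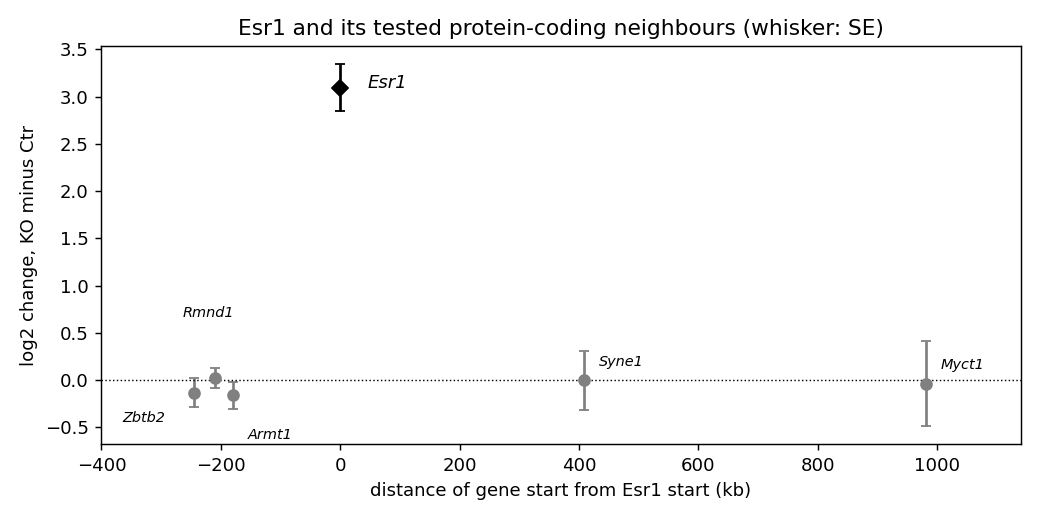
Log2 change (KO minus Ctr, on the log2(FPKM + 1) scale) of Esr1 and of its 5 tested protein-coding neighbours against the distance of each gene start from that of Esr1 in kilobases, with the SE as a whisker. Esr1 is at 3.10, and the neighbours lie between -0.16 and 0.02.

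The other oestrogen receptors stayed low in both groups. Esr2, oestrogen receptor beta, had 0.06, 0.01 and 0.05 FPKM in KO and 0.10, 0.02 and 0 FPKM in Ctr, or about 5, 1 and 3 reads in KO and 7, 1 and 0 in Ctr. The groups overlapped, and so few reads could not show a small difference of Esr2. The processed pseudogene Gm7862 overlaps Esr2 on the same strand over 292 bases and was listed at 14.2 to 16.5 FPKM in KO and 17.4 to 19.6 FPKM in Ctr. Its groups did not overlap, as for 8.59% of all genes tested.

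Gper1, a G protein-coupled receptor of the cell surface that binds oestradiol, was low. It had 1.6, 2.03 and 1.95 FPKM in KO and 1.86, 1.92 and 1.53 FPKM in Ctr, about 95 to 109 reads in KO and 87 to 107 in Ctr. The groups overlapped, and the log2 change was 0.05 (SE 0.14, 95% interval -0.28 to 0.37, limma adjusted p = 1.0). The whole gene (GRCm38 chromosome 5, 139423151 to 139427800, plus strand) lies within 3110082I17Rik on the minus strand, which had 3.19, 3.38 and 4.17 FPKM in KO and 2.56, 2.65 and 3.13 FPKM in Ctr. Whether reads were counted by strand is not given in the sources used here, so the reads of the pair may not be separated.

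Of the progesterone receptors in the set, the membrane receptor Paqr7 was the most abundant and was lower in every KO library. Paqr7 encodes membrane progestin receptor alpha, a surface receptor that is better known from oocytes and sperm. It had 18.2, 14.5 and 15.3 FPKM in KO and 23.5, 21.4 and 25.8 FPKM in Ctr. The groups did not overlap, with the highest KO value below the lowest Ctr value.

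The Paqr7 means were 16.0 ± 1.97 FPKM in KO and 23.6 ± 2.24 FPKM in Ctr (SD, n = 3 each), so KO was at 67.8% of Ctr. The log2 change was -0.54 (SE 0.11, 95% interval -0.80 to -0.27). It did not pass limma's test adjusted over all genes tested (adjusted p = 1.0), and its unadjusted p was 0.00191. Ordered from the most negative change, it stood at place 68 of all genes tested. The gene spans 134496697 to 134510235 on the plus strand of GRCm38 chromosome 4, and no annotated gene overlaps it. Without both libraries numbered 1 the means were 14.9 FPKM in KO and 23.6 FPKM in Ctr. With the replicate number as a block the adjusted p was 0.539.

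The promoter of Paqr7 is shown because Paqr7 is the other gene of the set whose groups did not overlap. RefSeq gives 2 starts, and the window around the downstream one is printed (GRCm38.p6 chr4:134496791-134497090, plus strand), with matches to the oestrogen response element half-site in capitals.
Paqr7 promoter: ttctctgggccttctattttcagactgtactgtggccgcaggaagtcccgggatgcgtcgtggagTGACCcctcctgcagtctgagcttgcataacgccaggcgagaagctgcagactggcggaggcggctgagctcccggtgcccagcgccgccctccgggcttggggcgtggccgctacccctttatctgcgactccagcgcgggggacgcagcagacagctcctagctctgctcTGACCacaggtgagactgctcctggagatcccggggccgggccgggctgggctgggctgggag
Both matches lie on the minus strand, read here as TGACC, and start 185 and 13 bases before the transcription start. The palindrome, the steroid receptor half-site and the FoxO motif were not in this window, and none of the 4 motifs was in the window of the upstream start (chr4:134496511-134496810). No promoter window of Nr3c1 was examined. Over the 10 windows of the other 7 genes, a FoxO motif was matched in those of Gper1 and Paqr8 only.

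Pgr, the nuclear progesterone receptor and a classical target of oestrogen receptor alpha in the reproductive tract, was low in every library. It had 0.26, 0.27 and 0.33 FPKM in KO and 0.15, 0.45 and 0.23 FPKM in Ctr, about 40 to 45 reads in KO and 23 to 70 in Ctr. The KO values lay inside the Ctr range. Paqr8, membrane progestin receptor beta, had 0.25, 0.33 and 0.29 FPKM in KO and 0.45, 0.35 and 0.30 FPKM in Ctr, and the groups overlapped. Esr2, Pgr and Paqr8 did not reach the mean of 1 FPKM and were not tested. On GRCm38, Esr2 lies at 76120419 to 76177259 on chromosome 12 (minus strand), Pgr at 8899833 to 8968611 on chromosome 9 (plus strand) and Paqr8 at 20890606 to 20939650 on chromosome 1 (plus strand).

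Related progestin-binding proteins had overlapping groups. Paqr5, membrane progestin receptor gamma, averaged 45.3 ± 5.6 FPKM in KO and 45.3 ± 7.92 FPKM in Ctr (SD, n = 3 each). Its relative Paqr6 was at most 0.47 FPKM in any library. Paqr9 had a log2 change of -0.14 (SE 0.12). The haem-binding protein gene Pgrmc1 was the most abundant of this list, at 184 ± 2.63 FPKM in KO and 190 ± 12.1 FPKM in Ctr (SD, n = 3 each), and Pgrmc2 had a log2 change of -0.06 (SE 0.09). Of the 4 genes tested, 0 passed limma's test, beside 0.0235% of all genes tested. An unadjusted limma p under 0.05 was found for 0 of them, beside 3.51% of all genes tested. Groups did not overlap for 8.59% of all genes tested.

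The corticosteroid receptors were well expressed, with overlapping groups. Nr3c1, the glucocorticoid receptor, had 16.6, 15.9 and 18.2 FPKM in KO and 22.4, 15.7 and 21.2 FPKM in Ctr. Ctr replicate 2 was the lowest of all 6. The means were 16.9 ± 1.16 FPKM in KO and 19.8 ± 3.57 FPKM in Ctr (SD, n = 3 each), with a log2 change of -0.20 (SE 0.14, 95% interval -0.52 to 0.12, limma adjusted p = 1.0).

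Nr3c2, the mineralocorticoid receptor, had 7.54, 9.47 and 8.45 FPKM in KO and 7.84, 10.7 and 7.73 FPKM in Ctr. Replicate 2 was the highest library of either group. The gene spans 76899442 to 77245012 on the plus strand of GRCm38 chromosome 8, and the long non-coding RNA gene Gm10649, which overlaps its start on the other strand, was at most 0.11 FPKM in any library. The means were 8.49 ± 0.966 FPKM in KO and 8.77 ± 1.71 FPKM in Ctr (SD, n = 3 each), and the log2 change was -0.03 (SE 0.14, 95% interval -0.37 to 0.30, limma adjusted p = 1.0). The direction of this small change depended on single libraries: it was 0.04 without KO replicate 1 and 0.11 without Ctr replicate 2. Transcripts of distal cells, in which this receptor is best known, were present in every library. The 9 principal cell genes, such as the water channel gene Aqp2, summed to 697, 835 and 659 FPKM in KO and 500, 854 and 819 FPKM in Ctr, and were highest in replicate 2 of either group too. The part of such cells in the level of Nr3c2 was not tested.

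In all, 5 of the 8 receptors reached the mean of 1 FPKM and were tested, Esr1 only through its KO libraries. Apart from Esr1, which was chosen for this contrast, 0 of the other 4 had a limma adjusted p under 0.05 and 1, Paqr7, had an unadjusted p under 0.05. The same test called 0.0235% of all genes, 0.0157% as higher and 0.00783% as lower in KO, and 3.51% of genes had an unadjusted p under 0.05. Of the same 4, groups did not overlap for 1, Paqr7, which was lower in KO, beside 8.59% of all genes tested, 3.89% with KO higher and 4.70% with KO lower.

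**Figure D3:**
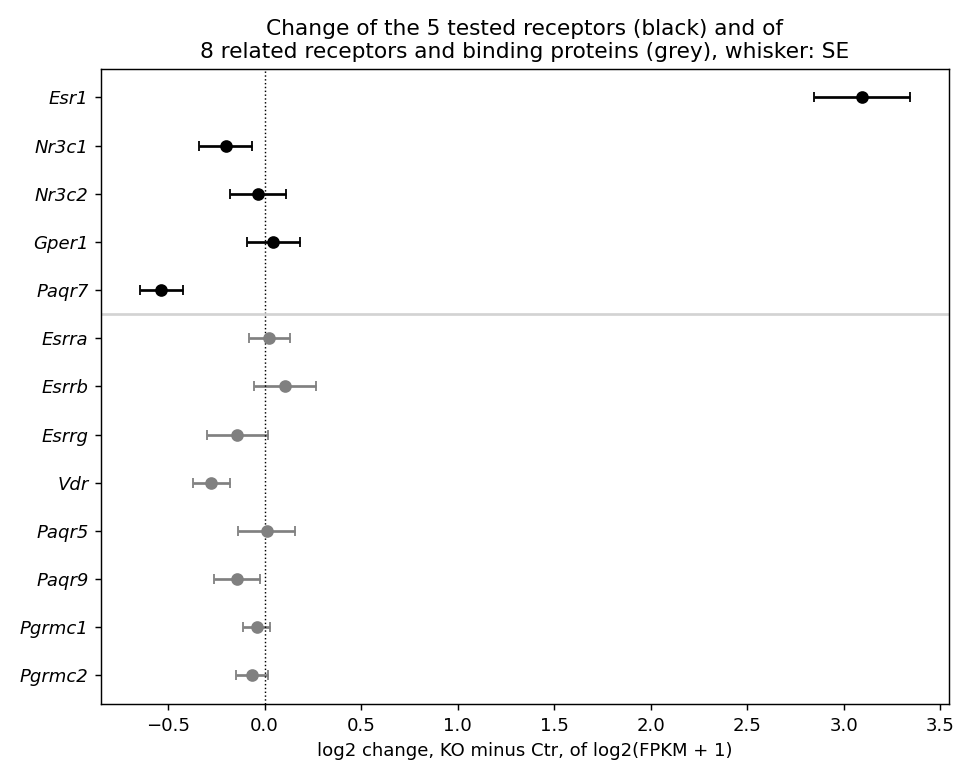
Log2 change (KO minus Ctr, on the log2(FPKM + 1) scale) with its SE for the 5 tested receptors of the set in black and for 8 related receptors and binding proteins in grey. Esr1 lies at 3.10, Paqr7 at -0.54, and the other 11 between -0.28 and 0.11.

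The order of the levels differed between the groups mainly by the place of Esr1. FPKM is per length, so levels can be compared between genes within a group. In KO the order was Nr3c1, Paqr7, Esr1, Nr3c2, Gper1, Paqr8, Pgr and Esr2. In KO the ranges of neighbours overlapped among the first 4 genes and between Paqr8 and Pgr, and were apart elsewhere. In Ctr the order was Paqr7, Nr3c1, Nr3c2, Gper1, Esr1, Paqr8, Pgr and Esr2, and neighbours overlapped between Paqr7 and Nr3c1 and between Paqr8 and Pgr. In KO the Esr1 range thus ran into that of both corticosteroid receptors, while in Ctr Esr1 lay below Gper1 in every library.

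Related nuclear receptors had small estimates. Vdr, the vitamin D receptor, had 41.1, 45.6 and 41.8 FPKM in KO and 46.5, 52.7 and 57.4 FPKM in Ctr. The groups did not overlap for Vdr, as for 8.59% of all genes tested. Its log2 change of -0.28 (SE 0.09) did not pass (limma adjusted p = 1.0). The oestrogen-related receptors, orphan receptors that regulate energy metabolism and bind no oestrogen, were at 0.03 (SE 0.10) for Esrra, 0.11 (SE 0.16) for Esrrb and -0.14 (SE 0.16) for Esrrg. Of these 4 genes, 0 passed limma's test and 1 had an unadjusted p under 0.05, beside 3.51% of all genes tested.

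Genes known to answer oestrogen in other tissues, Pgr among them, had estimates on both sides of 0. Of 27 listed genes, 26 were in the table and 15 were tested. By estimate 6 were higher and 9 lower in KO, with a median log2 change of -0.03, beside -0.02 for all genes tested, of which 56.4% had a lower estimate. The median lay between -0.03 and 0.04 as single libraries were left out, and was above 0 in 5 of the 6 cases, all but that without KO replicate 2. Limma passed 0 of the 15, and 2 had an unadjusted p under 0.05, beside 3.51% of all genes tested. These were the cyclin gene Ccnd1, at 75.5, 85.5 and 71.8 FPKM in KO and 56.6, 60.9 and 65.0 FPKM in Ctr (log2 change 0.34, SE 0.09), and the prolactin receptor gene Prlr, at 31.8, 41.7 and 40.1 FPKM in KO and 45.5, 46.4 and 49.4 FPKM in Ctr (log2 change -0.32, SE 0.11). The growth factor gene Igf1 had a log2 change of 0.28 (SE 0.20) and the retinoic acid receptor gene Rara one of 0.09 (SE 0.10), with overlapping groups. Greb1, an early target of oestrogen receptor alpha in breast cells, was listed at 0.02, 0 and 0 FPKM in KO and 0.01, 0 and 0 in Ctr. The trefoil peptide gene Tff1 had 0.93, 0.70 and 0.40 FPKM in KO and 0.51, 0.25 and 1.06 FPKM in Ctr, and the pioneer factor gene Foxa1, on which the receptor depends in breast cells, was listed at 0 in all 6.

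Of 22 glucocorticoid-responsive genes, 20 were tested, 13 with a higher and 7 with a lower estimate in KO (median log2 change 0.04). Limma passed 0, and 0 had an unadjusted p under 0.05. Beside these and the following lists, 56.4% of all genes tested had a lower estimate, with a median of -0.02. Of all genes tested, 3.51% had an unadjusted limma p under 0.05. Fkbp5, a chaperone induced by glucocorticoids, had a log2 change of -0.20 (SE 0.12). Sgk1, a kinase that answers both corticosteroids, had one of 0.15 (SE 0.11), the stress gene Gadd45g 0.47 (SE 0.41) and the repressor gene Bcl6 -0.41 (SE 0.39). Tsc22d3, a leucine zipper protein induced by glucocorticoids, had 16.5, 39.0 and 36.4 FPKM in KO and 18.8, 19.0 and 34.5 FPKM in Ctr, with overlapping groups. Of 12 mineralocorticoid-responsive genes of the distal nephron, 11 had a higher and 1 a lower estimate in KO (median 0.08), 0 passed limma's test and 1 had an unadjusted p under 0.05. This was the thiazide-sensitive cotransporter gene Slc12a3, at 481, 545 and 475 FPKM in KO and 405, 480 and 364 FPKM in Ctr, with overlapping groups. This list holds genes of distal cells, whose markers varied in summed FPKM between libraries as given above, and their part in these estimates was not tested. The median of the glucocorticoid list ran from -0.08 to 0.20 and that of the mineralocorticoid list from -0.07 to 0.19 as single libraries were left out. The 21 immediate early genes that tissue dissociation induces, some of which also answer steroids, had a median log2 change of 0.01, and 0 passed limma's test or had an unadjusted p under 0.05. Among them Klf4 had a log2 change of -0.23 (SE 0.15), Klf2 -0.22 (SE 0.29), Ier3 0.21 (SE 0.20) and Ier2 0.09 (SE 0.12).

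Proteins that bind the receptors were counted by the same test. Of all genes tested, 56.4% had a lower estimate (median -0.02) and 3.51% an unadjusted limma p under 0.05. Of 10 chaperones and cochaperones, all tested, 2 had a higher and 8 a lower estimate (median log2 change -0.05). Limma passed 0, and 0 had an unadjusted p under 0.05. Hspa4 had a log2 change of -0.12 (SE 0.11), the Hsp90 cochaperone gene Ptges3 -0.07 (SE 0.11) and the Hsp40 gene Dnajb1 0.09 (SE 0.17). Of 18 coregulators, 17 were tested, 8 with a higher and 9 with a lower estimate (median -0.004), 0 passed and 1 had an unadjusted p under 0.05. This was the acetyltransferase gene Crebbp, at 6.16, 7.88 and 6.73 FPKM in KO and 3.13, 4.83 and 3.57 FPKM in Ctr (log2 change 0.72, SE 0.15, limma adjusted p = 1.0). The coactivator gene Ncoa3 had a log2 change of -0.16 (SE 0.09), its relative Ncoa2 -0.11 (SE 0.10) and the RNA helicase gene Ddx5 -0.12 (SE 0.10).

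Enzymes that make and clear steroids had estimates in both directions. Of 27 listed genes, 25 were in the table and 16 were tested, 4 with a higher and 12 with a lower estimate in KO (median log2 change -0.07). Limma passed 0, and 2 had an unadjusted p under 0.05, beside 3.51% of all genes tested. Of all genes tested, 56.4% had a lower estimate, with a median of -0.02. Srd5a1, a reductase of testosterone, progesterone and other steroids, had 8.58, 9.13 and 8.12 FPKM in KO and 6.90, 6.77 and 7.34 FPKM in Ctr, with no overlap (log2 change 0.26, SE 0.09). Akr1c21, a hydroxysteroid dehydrogenase abundant in mouse kidney, had 711, 628 and 701 FPKM in KO and 888, 741 and 812 FPKM in Ctr, with no overlap (log2 change -0.26, SE 0.09). Srd5a1 and Akr1c21 were the only 2 of the 16 without overlap, beside 8.59% of all genes tested. Cyp19a1, the aromatase that makes oestradiol from testosterone, and Sult1e1, which inactivates oestradiol, were listed at 0 in all 6 libraries. Hsd11b1, which regenerates corticosterone, had a log2 change of -0.29 (SE 0.18) and the hydroxysteroid dehydrogenase gene Hsd3b3 -0.26 (SE 0.15), with overlapping groups. Hsd11b2, which inactivates corticosterone in mineralocorticoid target cells, averaged 210 ± 22.8 FPKM in KO and 202 ± 61.7 FPKM in Ctr (SD, n = 3 each).

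**Figure D4:**
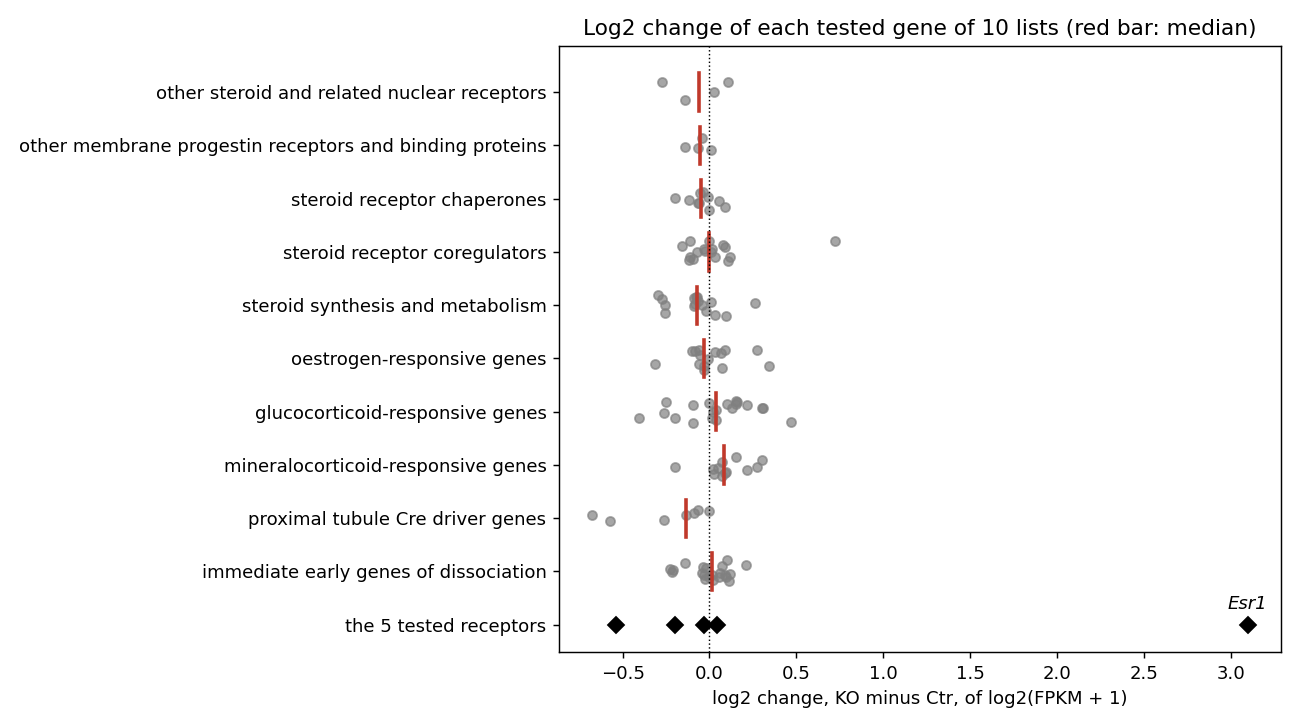
Log2 change (KO minus Ctr, on the log2(FPKM + 1) scale) of each tested gene of the 10 lists around the receptors (grey, median in red) and of the 5 tested receptors (black diamonds). The list medians lie between -0.14 and 0.08, and Esr1 is at 3.10.

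Genes whose values ran most like those of Esr1 over the 6 libraries were the paraspeckle gene Pspc1 (Pearson r = 0.99 of log2(FPKM + 1)), the tight junction-associated gene Tjap1 (0.983), Gm37376 (0.977), the DnaJ protein gene Dnajc8 (0.974) and the mitochondrial ribosomal RNA mt-Rnr2 (0.974). All 5 had KO values above all Ctr values, as Esr1 does. Their log2 changes, 0.20, 0.32, 1.35, 0.18 and 0.44, were far smaller than that of Esr1. Most like Paqr7 were Angel1 (0.996), Fastkd5 (0.989), the GTPase gene Rab30 (0.987), the annexin gene Anxa13 (0.986) and the nucleoporin-like gene Nupl2 (0.986), with log2 changes of -0.35, -0.13, -0.42, -0.61 and -0.28. These 10 were picked among 12770 genes by their likeness over 6 libraries, and no test applies to them.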

How the data were processed

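The authors deposited 1 table of FPKM values with 2 decimals for 52405 Ensembl genes in 6 libraries. The libraries came from a directional kit, per the labels' protocols. The submitters' processing notes list STAR 2.6.0c, RSEM and DESeq2 1.28.1 with no roles. The sources used here do not give a build, an annotation or a strand setting. GENCODE M21 (GRCm38) matched 99.4% of identifiers and supplied the coordinates. Promoters are RefSeq's (GRCm38.p6).

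Depth was estimated from the FPKM steps of single-transcript genes. Within 0.12 of a whole read lay 73.4 to 75.9% of the low values used. The share was 28.3 to 32.1% at 0.5 of that depth and 55.85 to 63.12% at 2 times that depth. The depth was picked for the highest share, and at 0.5 of it values of 1 read cannot lie on whole reads. These shares are thus no independent check, and 2 times that depth lay outside the search. Depths from 15000000 to 30000000 reads were searched, and read numbers are approximate. No 2 libraries held identical values. The 12770 genes averaging 1 FPKM or more were tested as log2(FPKM + 1) with limma 3.58.1 in R 4.3.3 (intensity trend, two-sided, Benjamini-Hochberg over all genes tested, threshold 0.05). The scale understates changes of low genes. The script was tested on simulated data. Over these genes, 95% intervals extended a median of 0.29 to either side.

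The members, the 10 gene lists and the 13 marker lists were chosen with earlier results of these data known. Named genes were the members, Igf1r, up to 4 genes per list by smallest p, all Cre driver genes, 4 neighbours of Esr1 per side and the 5 genes most like Esr1 and Paqr7. Gm2446, Hsd11b2, Paqr6, Tff1, the overlapping genes, and genes listed at or near 0 were chosen after their values were seen. 1 listed gene is not reported here. Deviations from the group means correlated by 0.63, 0.29 and 0.37 between KO and Ctr libraries numbered 1, 2 and 3. Each exceeded 0.1, so equal numbers were treated as pairs in the replicate block and in the differences by replicate number. This rests on these values alone, since no label states a pairing. The main fit used no pairing, and every SE, interval and limma p comes from it unless another setting is named. Unequal numbers 2 and 3 correlated too, by 0.30 between KO replicate 2 and Ctr replicate 3, as much as between both replicates 2, and by 0.15 between KO replicate 3 and Ctr replicate 2. Alternatives were another pseudocount, filter or scaling, the replicate block and libraries left out.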

Additional observations from a re-analysis of the deposited data

How the results depend on the processing

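Where a group kept 2 libraries, they shared the spread of the other group. For Nr3c1, Paqr7 and Igf1r the log2 change kept its direction and its side of the limma threshold in all 14 alternatives each. That of Esr1 ran from 2.94 to 3.40 as single libraries were left out and was 4.0 with a pseudocount of 0.1, on which the size of a low gene's change depends. That of Paqr7 ran from -0.63 to -0.47, that of Nr3c1 from -0.35 to -0.11 and that of Igf1r from -1.73 to -1.41. Small changes reversed: Nr3c2 ran from -0.11 to 0.11 (0.04 without KO replicate 1, 0.11 without Ctr replicate 2), and Gper1 from -0.018 (without Ctr replicate 3) to 0.11. The cause was not tested. Over the whole table limma called 3 genes, 1 where the mean had to reach 5 FPKM, and 6 without both libraries numbered 1. With 1 library left out it called 0 to 4: 1 without KO replicate 2 or Ctr replicate 3, and 0 without KO replicate 3, Ctr replicate 1 or Ctr replicate 2, where 430, 465 and 694 genes had an unadjusted p under 0.05. With the replicate block it called 4 genes, and no call of Igf1r or of a receptor other than Esr1 changed. Esr1 was among the genes fitted and counted, but its test result is not reported, since it was chosen from this contrast. The median of the oestrogen-responsive list was 0.065 without both libraries numbered 1, beside -0.03 with all 6. Medians of other lists also crossed 0 as single libraries were left out: chaperones ran from -0.15 to 0.02, coregulators from -0.03 to 0.03, immediate early genes from -0.13 to 0.23 and related nuclear receptors from -0.15 to 0.03. Depth limits Esr2, Pgr and Paqr8, at no more than 70 reads in a library.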
